A study of Mus musculus with 3 samples.

Results

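The basic helix-loop-helix (bHLH) factors described here are the oligodendrocyte lineage factors Olig1 and Olig2, the neuronal factors Neurod1, Neurog2 and Nhlh1, and the E proteins Tcf3, Tcf4 and Tcf12. They were chosen by gene symbol from the single-cell RNA count tables of 3 mouse brain tumours, and all 8 were found among the 27999 entries of each table. In the cells kept, 7 of the 8 had at least 1 unique molecular identifier (UMI, a tag that counts an RNA molecule once) in tumour 1, and 8 in tumours 2 and 4. Nhlh1 was the factor without a UMI in tumour 1.

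bHLH factors bind DNA as dimers at a short motif, the E-box (CANNTG). E proteins are made in many cell types and serve as the common partner. Class II factors such as Neurod1, Neurog2 and the Olig factors are restricted to lineages and usually bind as dimers with an E protein. Id proteins also pair with E proteins but lack a DNA-binding region, so they keep E proteins off DNA. Olig2 specifies oligodendrocyte progenitor cells (OPCs) and is a hallmark of diffuse glioma cells, and Olig1 acts in the maturation of oligodendrocytes. Neurog2 and Neurod1 drive neuronal commitment and differentiation, and Nhlh1 is switched on in newborn neurons.

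The tumours are labelled as brain tissue with paediatric brain glioma, a mouse model, and all 3 share the labelled genotype, H3f3a K27M (histone H3.3), Pdgfra D842V (a receptor tyrosine kinase) and Trp53 R270H (a tumour suppressor). The constructs were delivered by MADR electroporation between postnatal days 1 and 2, into mice heterozygous for the fluorescent reporter allele Gt(ROSA)26Sortm4(ACTB-tdTomato,-EGFP). The labelled strain name joins the prefix B6.129(Cg) to that allele and ends in Luo/J. Tumours 1, 2 and 4 were taken at postnatal days 150, 106 and 149, GFP-positive cells were sorted, and 1 library per tumour was made. These samples hold no control group. Levels are therefore set side by side between tumours without a test, and tests are made between cell states within tumours. With tumour as a block, their p-values measure how the difference between states varies between the libraries of each fit. These libraries are fewer than 3 where a tumour did not enter or was left out.

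Levels are UMIs per 1000000 UMIs (CPM) with exact Poisson 95% intervals that cover counting error only. After filtering, 3361, 1548 and 4377 cells remained in tumours 1, 2 and 4, with medians of 11939, 7783 and 9494 UMIs. Clusters low in leukocyte and vascular markers are called neural here and held 3193, 1054 and 4295 cells. Immune clusters held 168, 416 and 82 cells despite the GFP sort. Tumour 2 also had 78 cells in vascular or mixed clusters, and it stood apart in its myelin genes, where 14 myelin genes summed to 41860 CPM in neural cells, against 1004 CPM in tumour 1 and 4021 CPM in tumour 4. The libraries of tumours 1 and 2 shared 6 cell barcodes, those of 1 and 4 shared 20, and those of 2 and 4 shared 11. A 3′ kit counts RNA ends, so levels are compared for the same gene and not ranked between genes.

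Olig1 and Olig2 RNA was present in each of the 37 neural clusters. Olig1 stood at 1116 CPM (1106 to 1126) in tumour 1, 812 (795 to 829) in tumour 2 and 1600 (1589 to 1611) in tumour 4, a mean of 1176 ± 398 CPM (SD, n = 3). The order was tumour 4, then 1, then 2, with no overlap of counting intervals. Olig2 stood at 209 CPM (205 to 213) in tumour 1, 199.7 (191 to 208) in tumour 2 and 324 (319 to 329) in tumour 4, with a mean of 244 ± 69.4 CPM (SD, n = 3). Tumour 4 was highest for this gene as well, and the intervals of tumours 1 and 2 overlapped.

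Of the E protein genes, Tcf12 had the order of Olig1, and Tcf3 and Tcf4 did not. Tcf4 was the most even of the 8 factors between tumours, at 604 CPM (597 to 611) in tumour 1, 520.1 (507 to 534) in tumour 2 and 504 (498 to 510.0) in tumour 4. Its mean was 543 ± 53.8 CPM (SD, n = 3), and tumours 2 and 4 had overlapping intervals. Tcf3, the gene for the E12 and E47 proteins, was highest in tumour 1, with 97.5 CPM there, 57.5 CPM in tumour 2 and 69.5 CPM in tumour 4. Tcf12, the gene for the E protein HEB, was highest in tumour 4, with 156, 105 and 239.7 CPM in tumours 1, 2 and 4.

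The neuronal factors were rare, and most UMIs of each came from 1 tumour. Neurod1 was at 22.5 CPM (21.2 to 23.8) in tumour 4, from 1151 UMIs, against 4.89 (3.66 to 6.40) in tumour 2 and 0.453 (0.277 to 0.7) in tumour 1. Neurog2 was at 7.75 CPM (6.18 to 9.60) in tumour 2, from 84 UMIs, and had 4 UMIs in tumour 1 and 2 UMIs in tumour 4. Nhlh1 had 33 UMIs in tumour 4 and 3 in tumour 2. It had 0 UMIs in tumour 1, where the limit of 3 counts allows 0.0679 CPM.

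**Figure D1:**
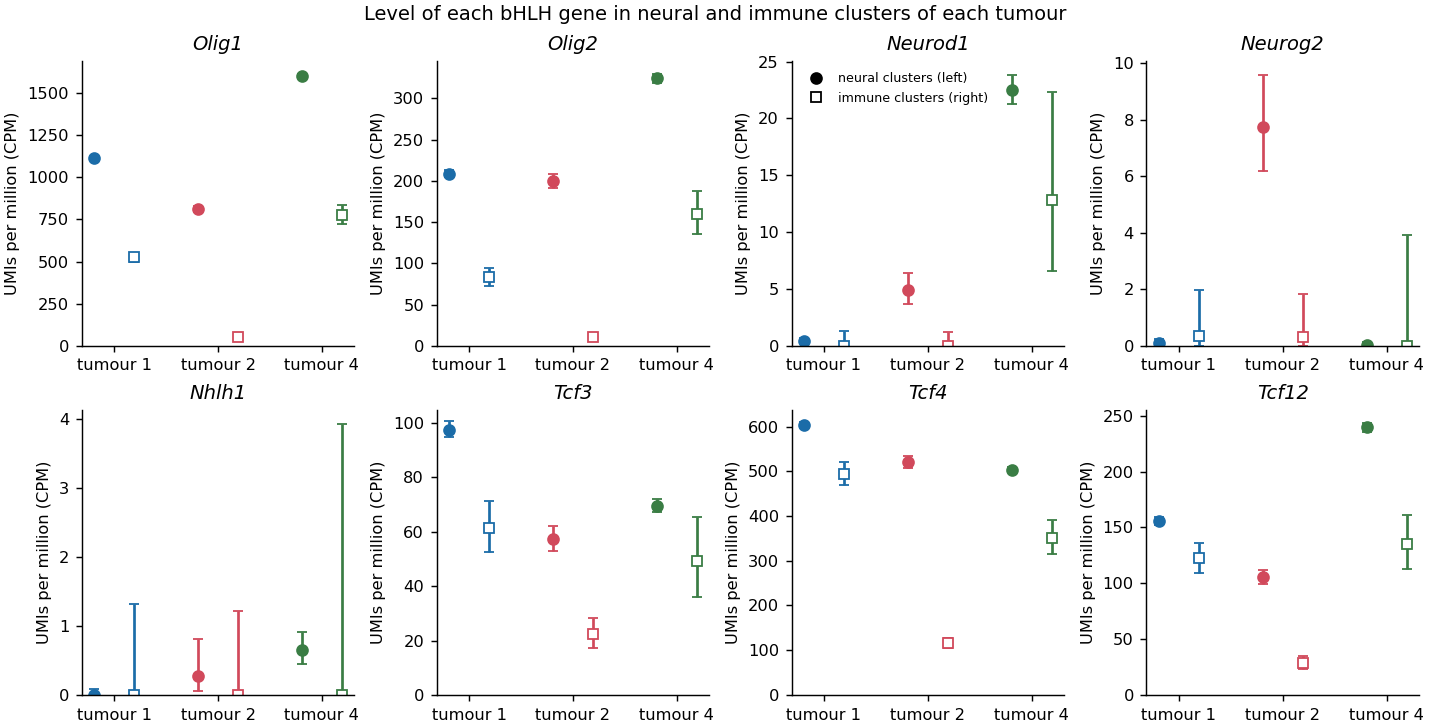
CPM of each factor (y axis, linear, a separate scale per gene) in neural clusters (filled circles, left) and immune clusters (open squares, right) of tumours 1, 2 and 4, with exact Poisson 95% intervals as bars. Olig1 in neural clusters is at 1116, 812 and 1600 CPM, and Neurod1 reaches 22.5 CPM in tumour 4 alone.

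Immune clusters carried RNA of the Olig and E protein genes, and its amount differed between tumours. Olig1 was at 1116, 812 and 1600 CPM in neural clusters of tumours 1, 2 and 4, against 525, 54.5 and 777 CPM in immune clusters. Olig2 was at 209, 199.7 and 324 CPM in neural clusters, against 83.3, 10.51 and 160.1 CPM in immune clusters. The neural level was higher in every tumour, with a log2 ratio for Olig1 of 3.90 (3.67 to 4.13) in tumour 2, against 1.09 (1.01 to 1.16) in tumour 1 and 1.04 (0.94 to 1.15) in tumour 4. Other OPC genes were likewise lowest in the immune clusters of tumour 2. A list of 12 OPC genes without the Olig factors summed to 1174, 1004 and 1136 CPM in neural clusters, against 936.5, 68.0 and 704 CPM in immune clusters. The part of such RNA in the results was not tested.

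With tumour as a block, edgeR's quasi-likelihood test over 13460 genes called 9.9% of genes between neural and immune clusters, and 0 of the 6 factors that passed the count filter. Olig1 differed by 1.49 ± 0.52 (log2, SE; adjusted p = 0.14) and Olig2 by 1.63 ± 0.53 (adjusted p = 0.12), each higher in 3 of 3 tumours. Both passed without tumour 2, at 0.81 (adjusted p = 0.00031) and 0.92 (adjusted p = 0.00093) in edgeR, where 17% of genes were called. DESeq2 also called both in all 3 tumours, at adjusted p = 0.014 for Olig1 and 0.0096 for Olig2, with 10.3% of genes called. Neurog2 and Nhlh1 did not pass the filter.

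Detection was compared in cells thinned to 5000 UMIs, which left out 11, 254 and 412 shallower neural cells. Olig1 was found in 94.97%, 83.1% and 97.4% of neural cells of tumours 1, 2 and 4, against 82.7%, 22.7% and 75.6% of immune cells. Olig2 was found in 59.3%, 54.8% and 73.0% of neural cells, against 26.2%, 4.01% and 39.7% of immune cells. The gap between the compartments was widest in tumour 2 for both genes. Unthinned, Olig2 was found in 80.9%, 64.8% and 85.9% of neural cells, against 49.4%, 7.21% and 50% of immune cells. The median depth of the thinned sets was 11920, 10230 and 10330 UMIs in neural cells, against 13160, 8134 and 10190 UMIs in immune cells. In tumours 1 and 4 most immune cells held an Olig1 UMI, so a single UMI did not separate the compartments there.

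Cells with an Olig2 UMI had an Olig1 UMI more often than the other neural cells. In thinned cells, Olig1 was present in 97.1% of Olig2-positive against 91.9% of Olig2-negative cells in tumour 1, 92.2% against 72.1% in tumour 2, and 99.0% against 93.1% in tumour 4. Cells with both numbered 1833, 404 and 2808, which is 1.02, 1.11 and 1.02 times the number that independent detection would give. Of the 28 pairs of factors, 10 were above 1 in all 3 tumours in cells thinned to 5000 UMIs, and 5 in cells thinned to 8000. Pairs with Nhlh1 could not be among them, since it had 0 UMIs in tumour 1. Among the E proteins these ratios lay close to 1, from 1.00 for Tcf3 and Tcf4 in tumour 1 to 1.10 for Tcf3 and Tcf12 in tumour 2. A factor found in most cells keeps such a ratio near 1, so values for pairs with Olig1 or Tcf4 tell little about dependence. Tcf4 was found in 92.6%, 79.9% and 87.9% of thinned neural cells of tumours 1, 2 and 4.

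Olig1 and Olig2 also moved together across clusters. The genes are neighbours on chromosome 16 in mm10, Olig2 at chr16:91225457-91228677 and Olig1 at chr16:91269772-91271933, both on the plus strand and 41095 bp apart. Over the 13, 11 and 13 neural clusters of tumours 1, 2 and 4, Pearson's r between the log2(CPM + 10) of both genes was 0.77, 0.88 and 0.93. This is a description: clusters share a library, and the 8 factors were kept out of the genes used for clustering. Among 7059 genes ranked by the mean of the 3 values, Olig2 was the closest to Olig1 and Olig1 the closest to Olig2, with a mean r of 0.86. The next closest to Olig1 were Uqcr11, Fuz, Ndufb2 and Phpt1, and the next closest to Olig2 were Asrgl1, Gpr37l1, Pxdc1 and Sdhaf4.

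**Figure D2:**
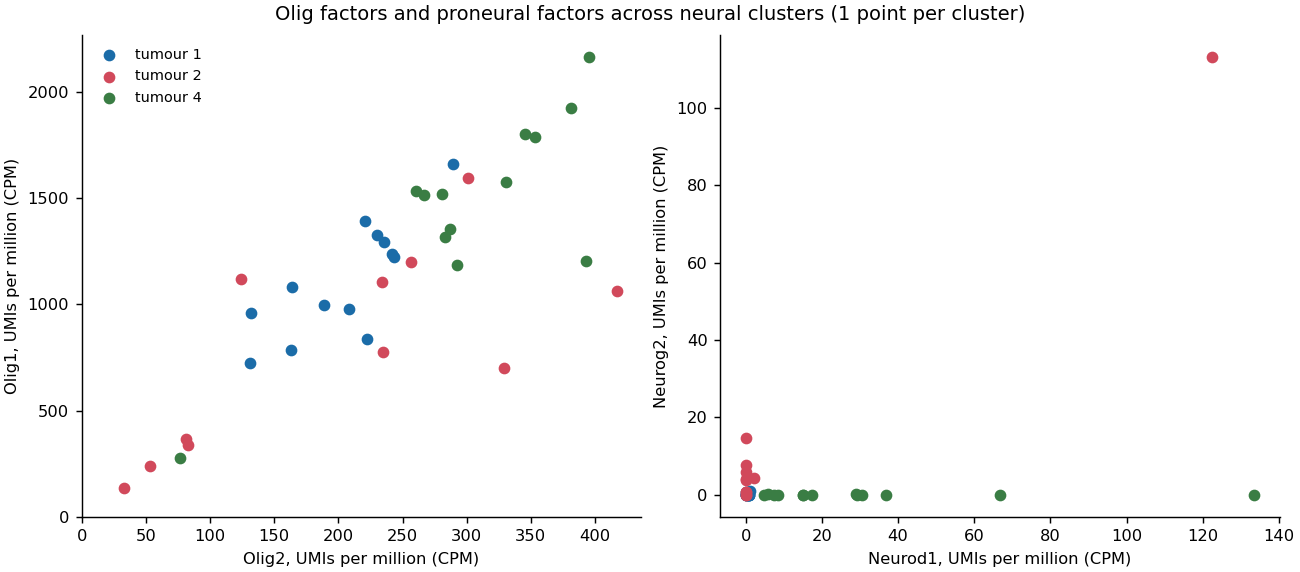
Each point is 1 of the 37 neural clusters, coloured by tumour, with linear axes in CPM. The left panel sets Olig1 (y) against Olig2 (x), where clusters run from 134 CPM of Olig1 to 2165 CPM, and the right panel sets Neurog2 (y) against Neurod1 (x), where 1 cluster of tumour 2 holds 113 CPM of Neurog2 and 122.5 CPM of Neurod1.

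The clusters lowest in Olig RNA were small. Cluster 15 of tumour 2 (22 cells) had 134 CPM of Olig1 and 33.0 CPM of Olig2, and its leading genes included the stress and p53 response genes Gdf15, Mdm2 and Cdkn1a. Cluster 12 of tumour 2 (38 cells) had 241 CPM of Olig1, was led by the interneuron genes Dlx6os1, Dlx1 and Sp8, and had the highest Tcf4 level of any neural cluster, 1691 CPM. Cluster 6 of tumour 4 (39 cells) had 276 CPM of Olig1 and was led by Txnip, with Gdf15 among its leading genes. Larger clusters came next, so low Olig RNA was not confined to small ones. Clusters 3 and 0 of tumour 2 (136 and 109 cells) had 337 and 366 CPM of Olig1 and 82.4 and 81.5 CPM of Olig2. In tumour 1 no neural cluster was below 721 CPM of Olig1.

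The number of Olig1 UMIs per Olig2 UMI differed between states. It was 5.34 (5.22 to 5.46) in neural cells of tumour 1, 4.07 (3.88 to 4.26) in tumour 2 and 4.94 (4.86 to 5.02) in tumour 4. In tumour 2 it was 2.53 (2.33 to 2.76) in 231 weakly cycling cells rich in committed OPC genes such as Gpr17 and Bmp4. Tumours 1 and 4 gave 5.31 (3.93 to 7.31) and 5.09 (4.55 to 5.702) in such cells, so the low ratio was seen in tumour 2 and not in the other tumours.

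The relation to division was read from 94 genes of S phase and of G2 and mitosis, counted in cells thinned to 2000 UMIs. Within each tumour, Olig1 was lower in dividing cells, while Tcf3 and Tcf4 were higher; no factor passed the test across tumours. Olig1 averaged 1008, 740 and 1410 CPM in cycling cells of tumours 1, 2 and 4 (5 or more cycle UMIs), against 1279, 866 and 1784 CPM in non-cycling cells (1 or fewer). The log2 ratios were -0.34, -0.23 and -0.34, and the highest counting bound was -0.14, in tumour 2. Tcf3 was at 105, 66.3 and 77.2 CPM in cycling cells, against 90.1, 51.1 and 58.7 CPM in non-cycling cells. Tcf4 was at 625, 676 and 522 CPM in cycling cells, against 570, 409 and 475 CPM in non-cycling cells. Both E proteins were thus higher in cycling cells of each tumour. Olig2 had log2 ratios of -0.13, 0.01 and -0.03, and Tcf12 of 0.12, 0.31 and 0.00. Neurod1 was at 28.0 CPM in cycling cells of tumour 4, against 15.4 CPM in non-cycling cells.

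Over finer steps, Olig1 was lower in the bins above 9 cycle UMIs than in any bin below, in each tumour. In the bins 0 to 1, 2 to 4, 5 to 9, 10 to 19 and 20 or more cycle UMIs, it was at 1279, 1289, 1199, 929 and 864 CPM in tumour 1. The same bins held 866, 826, 869, 670.2 and 548 CPM in tumour 2 and 1784, 1758, 1630, 1298 and 1208 CPM in tumour 4. The largest step down lay between the bins 5 to 9 and 10 to 19 in each tumour. Tcf3 had 117, 79.1 and 88.4 CPM in the highest bin, against 90.1, 51.1 and 58.7 CPM in the lowest. The cycling cells were deeper than the non-cycling ones in tumours 1 and 4 and not in tumour 2, with medians of 13197, 7673 and 10175.5 UMIs against 10872, 8358.5 and 9135.

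**Figure D3:**
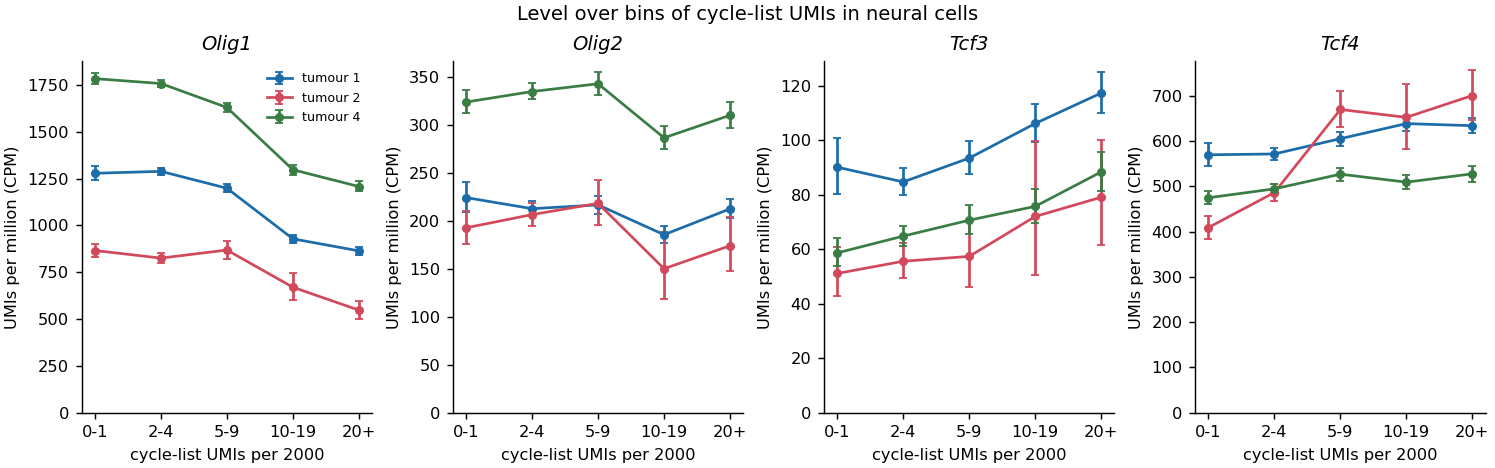
CPM (y axis, linear from 0) of Olig1, Olig2, Tcf3 and Tcf4 in neural cells grouped by cycle-list UMIs per 2000 (x axis, from low to high), 1 line per tumour, with exact Poisson 95% intervals. Olig1 ends at 864, 548 and 1208 CPM in the highest bin of tumours 1, 2 and 4, and Tcf3 ends above its first bin in each.

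edgeR's quasi-likelihood test over 13116 genes, cycle genes left out, called 2.29% of genes and 0 of the 7 factors tested. Olig1 differed by -0.41 ± 0.097 (log2, SE; adjusted p = 0.11; lower in 3 of 3 tumours), Tcf3 by 0.23 ± 0.14 (adjusted p = 0.45) and Tcf4 by 0.22 ± 0.13 (adjusted p = 0.45). Over the 7 factors the median log2 change was 0.221 (0.0632 over 6 factors without tumour 2), and over all genes tested -0.0152. Without tumour 2, 3 factors were called while 20.5% of all genes were: Olig1 fell by 0.37 (adjusted p = 1.2e-10), Neurod1 rose by 0.78 (adjusted p = 0.00085) and Tcf3 rose by 0.28 (adjusted p = 0.0093) in edgeR. The value of Neurod1 joins tumours of opposite sign. Its log2 ratio was 0.86 (0.59 to 1.14) in tumour 4 and -1.09 (-3.01 to 1.39) in tumour 1, from 11 and 3 UMIs there.

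In tumour 2 the lower Olig1 of dividing cells depended on small clusters. Between cells with 10 or more and 4 or fewer cycle UMIs, the log2 ratio of Olig1 was -0.50 in all neural clusters of tumour 2 and -0.08 without the stress-marked cluster 15 and the interneuron-marked cluster 12. In tumour 4 it was -0.49 with and -0.47 without cluster 6, and in tumour 1, with no such cluster, -0.52. Tcf3 kept log2 ratios of 0.38, 0.59 and 0.39 in tumours 1, 2 and 4 without those clusters. These limits and this split were chosen after seeing the data.

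Among cycling cells, the Olig1 level was lower in G2/M than in S phase in each tumour, and the Olig2 level was slightly higher in each. Cycling cells were called G2/M where they had more G2/M-list than S-list UMIs, relative to the tumour's own ratio of both lists. Cells with fewer were called S phase. This gave 846, 157 and 928 G2/M cells in tumours 1, 2 and 4, against 921, 138 and 920 S phase cells. Olig1 was at 919, 714 and 1243 CPM in G2/M cells of tumours 1, 2 and 4, against 1093, 769 and 1595 CPM in S phase cells. Olig2 was at 213, 206 and 321 CPM in G2/M cells, against 198, 179.8 and 310.4 CPM in S phase cells. The counting interval of the Olig2 log2 ratio included 0 in tumour 2 (-0.05 to 0.44) and tumour 4 (-0.02 to 0.12). That of Olig1 included 0 in tumour 2 (-0.23 to 0.01). The ratio of Olig1 to Olig2 UMIs was accordingly 4.32, 3.46 and 3.87 in G2/M cells, against 5.53, 4.28 and 5.14 in S phase cells. The intervals of the ratio were apart in tumour 1 (4.14 to 4.50 against 5.31 to 5.76) and tumour 4 (3.74 to 4.01 against 4.95 to 5.33), and in tumour 2 they overlapped (3.06 to 3.94 against 3.73 to 4.92).

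edgeR's quasi-likelihood test over 14020 genes called 1.85% of genes between these phases and 0 of 7 factors. Olig1 differed by -0.25 ± 0.065 (log2, SE; adjusted p = 0.11; lower in 3 of 3 tumours) and Olig2 by 0.11 ± 0.076 (adjusted p = 0.60). With at least 10 cycle UMIs per cell, Olig1 fell by 0.28 (adjusted p = 0.018) where edgeR called 4.3% of genes. Without thinning it fell by 0.46 (adjusted p = 1.0e-04), where 6.2% were called. Without tumour 2 it fell by 0.29 (adjusted p = 2.4e-06), where 9.92% were called. The direction was the same under each of these settings. Tcf3, Tcf4 and Tcf12 had log2 changes between -0.02 and 0.09. Of the related genes, the E protein antagonist Id1 rose by 0.45 ± 0.095 (adjusted p = 0.042) and the oligodendrocyte lineage factor Nkx6-2 fell by 0.58 ± 0.12 (adjusted p = 0.034). Gadd45g, a proneural target, rose by 0.28 ± 0.060 (adjusted p = 0.045). Each was the 1 gene called in its list, of 11 E protein partners and antagonists, 12 lineage factors and 11 proneural targets tested in edgeR. DESeq2, which called 0.697% of genes, called Nkx6-2 (adjusted p = 0.012) and neither Id1 nor Gadd45g. Without tumour 1 edgeR called none of the 3 genes, and without tumour 4 it called Nkx6-2 alone of them.

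The relation to glial state was read from lists of OPC genes (such as Cspg4 and Ptprz1) and myelin genes (such as Mbp and Mog), none of which holds a member. Tcf4, Olig1 and Olig2 were higher in OPC-high than in OPC-low cells of tumours 2 and 4, most of all in tumour 2. Tcf4 was at 619, 948 and 553 CPM in OPC-high cells of tumours 1, 2 and 4, against 569, 269 and 416 CPM in OPC-low cells. Olig2 was at 235, 365 and 352 CPM in OPC-high cells, against 230.0, 129 and 297 CPM in OPC-low cells. Olig1 was at 1228, 1382 and 1961 CPM in OPC-high cells, against 1313, 725 and 1626 CPM in OPC-low cells. In tumour 1 its log2 ratio was -0.10 (-0.25 to 0.05), an interval that includes 0, and with up to 4 cycle UMIs, a limit added after seeing the data, it was 0.33 (0.26 to 0.39).

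The states held 38, 41 and 121 OPC-high cells against 106, 145 and 290 OPC-low cells. Between the top and the bottom 25% of cells by OPC share, Olig1 was higher in the top 25% of all 3 tumours, at 1439, 1228 and 2072 CPM against 1157, 621 and 1368 CPM. edgeR's quasi-likelihood test over 9829 genes called 0% of genes between OPC-high and OPC-low cells, hence 0 of 6 factors, with 662 genes at an unadjusted p under 0.05. Tcf4 differed by 0.64 ± 0.32 (log2, SE; adjusted p = 0.70), Olig2 by 0.44 ± 0.29 (adjusted p = 0.71) and Olig1 by 0.23 ± 0.23 (adjusted p = 0.80). DESeq2 called 11 of 17078 genes (0.0644%), with 0 factors among them.

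**Figure D4:**
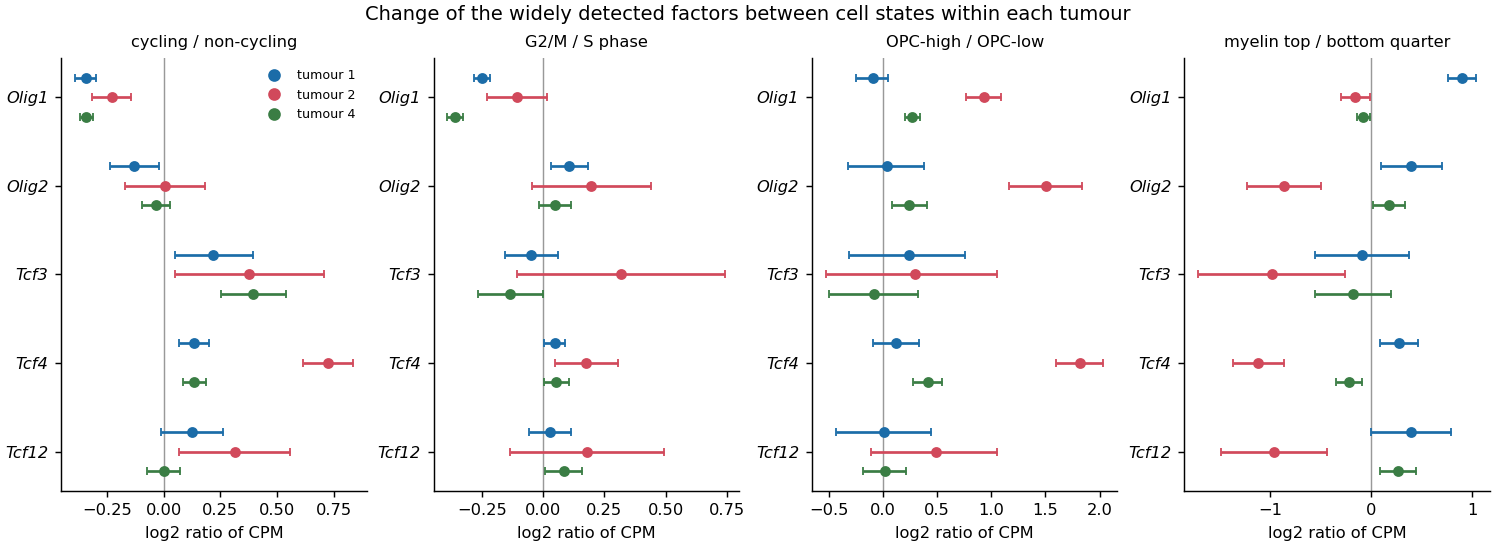
Log2 ratio of CPM within each tumour (x axis, a separate linear scale per panel) for the widely detected factors (y axis), with bars for exact 95% counting intervals. Olig1 lies left of 0 in all 3 tumours for cycling against non-cycling cells and for G2/M against S phase, where the interval of tumour 2 includes 0, and Tcf4 of tumour 2 lies at 1.82 for OPC-high against OPC-low cells.

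The myelin comparison was tested between the top and bottom 25% of cells, since 2 non-cycling cells of tumour 1 were myelin-high and 6 of tumour 2 were myelin-low. Tumours differed in direction. Olig1 was at 1591, 1126 and 1603 CPM in the top 25% by myelin share in tumours 1, 2 and 4, against 855, 1257 and 1693 CPM in the bottom 25%. Olig2 was at 261, 148 and 318 CPM in the top 25%, against 198, 269 and 282 CPM in the bottom 25%. Tcf4 was at 620.4, 286 and 419.8 CPM in the top 25%, against 513, 622 and 491 CPM in the bottom 25%. All 3 genes were higher in the top 25% of tumour 1 and lower in that of tumour 2. edgeR called 0% of 8442 genes and 0 of 5 factors, with 756 genes at an unadjusted p under 0.05, and DESeq2 called 88 genes (0.525%) with 0 factors among them. Without tumour 2, edgeR gave Olig1 a log2 change of 0.35 (adjusted p = 0.049), where 4.74% of genes were called. That value joins tumours of opposite direction, with log2 ratios of 0.90 (0.76 to 1.03) in tumour 1 and -0.08 (-0.15 to -0.01) in tumour 4.

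In tumour 2, which had the most myelin RNA, Tcf4 and Tcf3 were lower in cells with more of it. In cells with up to 4 cycle UMIs, the steps 0 to 4, 5 to 19, 20 to 99, 100 to 199 and 200 or more myelin UMIs per 2000 held 863, 733, 475, 262 and 321 CPM of Tcf4. Tcf3 held 93.5, 79.2, 55.9, 40.8 and 33.4 CPM in the same steps. Olig1 held 759, 1229, 567, 651 and 1264 CPM there, with no single direction. The lowest step had 28 cells with a median of 5152.5 UMIs and the highest 93 cells with 14798 UMIs.

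Between neuronal-high and neuronal-low cells, by genes such as Nefl and Stmn2, tumours 1 and 2 had enough cells in both states. These were 156 and 23 neuronal-high cells in tumours 1 and 2, against 25 and 148 neuronal-low cells. In each tumour 1 state was thus little above the limit of 20 cells. Olig2 was at 200.9 and 103 CPM in neuronal-high cells of tumours 1 and 2, against 244 and 204 CPM in neuronal-low cells. edgeR's quasi-likelihood test over 8630 genes called 1.27% of genes and 0 of 5 factors, with Olig2 at -0.66 ± 0.34 (log2, SE; adjusted p = 0.62). Elavl4, which encodes a neuronal RNA-binding protein, rose by 2.42 ± 0.66 (adjusted p = 0.028), the 1 called gene of 9 proneural targets tested. DESeq2 called 0% of 16269 genes here, with 121 at an unadjusted p under 0.05, and so did not call Elavl4. In tumour 4, Olig2 was at 319 CPM in the top 25% by neuronal share, against 298 CPM in the bottom 25%.

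The neuronal factors Neurod1, Neurog2 and Nhlh1 are shown by the bases before their transcription starts, since Neurod1 and Nhlh1 were found in the same cells of tumour 4. The sequences are RefSeq promoters of GRCm38.p6, 5′ to 3′ on the gene's strand, shortened where they reached into the annotated gene, with E-boxes (CANNTG, which reads the same on both strands) in capitals. They lie at chr2:79456752-79456886 (minus strand), chr3:127632886-127633134 (plus strand) and chr1:172057597-172057846 (minus strand).
Neurod1: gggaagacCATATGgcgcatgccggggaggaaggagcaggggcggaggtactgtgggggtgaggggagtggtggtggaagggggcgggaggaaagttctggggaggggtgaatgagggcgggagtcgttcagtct
Neurog2: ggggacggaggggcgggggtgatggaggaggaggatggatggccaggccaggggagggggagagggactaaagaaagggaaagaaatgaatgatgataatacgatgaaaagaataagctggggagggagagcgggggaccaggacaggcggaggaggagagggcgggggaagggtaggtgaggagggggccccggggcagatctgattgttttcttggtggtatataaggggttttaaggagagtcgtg
Nhlh1: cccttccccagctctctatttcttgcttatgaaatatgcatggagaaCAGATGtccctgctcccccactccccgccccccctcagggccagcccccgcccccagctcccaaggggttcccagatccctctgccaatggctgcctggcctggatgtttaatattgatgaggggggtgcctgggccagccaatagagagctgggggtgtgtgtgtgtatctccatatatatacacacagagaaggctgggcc
Neurod1 held 1 E-box in these 135 bases, Neurog2 0 in 249 and Nhlh1 1 in 250, of the form CAGATG. Of 32851 RefSeq promoters, 66.2% held a CANNTG within the 250 bases before the start and 14.4% a CAGATG on either strand, which is 1 form of CANNTG. These shares are for the full 250 bases, the length printed for Nhlh1 and not for the others. A match is a description of these windows.

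In tumour 4, Neurod1 was spread over all 13 neural clusters, from 4.74 to 133.5 CPM. Of 4295 neural cells, 673 (15.7%, exact binomial 95% interval 14.6 to 16.8) had a Neurod1 UMI, against 8 of 82 immune cells (9.76%, 4.31 to 18.3). Thinned to 5000 UMIs, the shares were 9.43% (8.53 to 10.4) of neural cells and 5.13% (1.41 to 12.6) of immune cells, with intervals that overlapped. At least 2 Neurod1 UMIs were found in 255 neural cells, with up to 11 in a cell. Cluster 12 (117 cells) held 49 of them and was led by genes that included Gal, Hes6, Neurod1 and Insm1. Cluster 11, led by mitotic genes such as Ccnb1 and Cdc20, had 66.7 CPM of Neurod1.

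Neurod1 was lower in the myelin-rich cells of tumour 4. Neurod1 was at 4.14 CPM in the top 25% of non-cycling cells by myelin share, against 23.9 CPM in the bottom 25%. In cells with up to 4 cycle UMIs it was at 3.06 CPM in myelin-high cells, against 29.9 CPM in myelin-low cells. No Neurod1 UMI lay in either of these states of tumour 2, so the difference is a value of 1 library. With this limit, chosen after seeing the data, edgeR's quasi-likelihood test of tumours 2 and 4 called 7.66% of 11953 genes. Among these was 1 of the 7 factors tested. For Neurod1 that fit holds counts of tumour 4 alone, so it shows no agreement between tumours. In this comparison 5 of 12 oligodendrocyte lineage factors rose and 1 fell, among them Myrf, which drives myelin genes and rose by 2.88 (edgeR, adjusted p = 4.2e-10), and Prrx1, which fell by 2.63 (adjusted p = 5.1e-05). Of the 11 proneural targets tested 2 rose and 5 fell, among them Rnd2, which rose by 1.94 (adjusted p = 1.3e-05), and Elavl4, which fell by 2.17 (adjusted p = 5.6e-05). Of 11 E protein partners and antagonists 1 rose and 4 fell, among them Id2, an inhibitor that binds E proteins, which fell by 1.56 (adjusted p = 3.2e-04). Tumour 2 entered with 28 myelin-low cells.

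Nhlh1 was found mostly in cells with a Neurod1 UMI. Of the 28 neural cells of tumour 4 with an Nhlh1 UMI, 23 also had a Neurod1 UMI, and 16 lay in cluster 12. In cells thinned to 5000 UMIs, 8 cells had both, against 1.32 under independent detection. Nhlh1 stood at 13.5 CPM in cluster 12 and at a median of 0.263 CPM over the neural clusters of tumour 4.

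Neurod1-positive cells of tumour 4 (2 or more UMIs) were set against Neurod1-negative cells for the genes of the same lists. Of 14 proneural targets, 5 were at least 2-fold higher and 0 at least 2-fold lower in positive cells. These are values of 1 library with counting intervals and no test, and the 255 positive cells were deeper than the 3622 negative ones, with a median of 12615 against 9210 UMIs. Over 16774 genes, 7.43% were 2-fold higher and 12.5% were 2-fold lower. These shares count genes with 0 UMIs in either group, while the list counts place such genes in neither direction. The shares and the list counts therefore follow unlike rules, which matters most for genes of few UMIs. Insm1, a zinc finger repressor of neuroendocrine and neuronal progenitors, was at 15.4 CPM (11.7 to 19.9) in positive cells against 0.838 CPM (0.584 to 1.17) in negative cells, an 18.4-fold ratio (11.9 to 28.8). The Notch ligand Dll3 was at 32.9 against 10.2 CPM, and Mfng, which modifies Notch, at 72.8 against 32.1 CPM. The somatostatin receptor Sstr2 had 16 against 5 UMIs, and the corepressor Cbfa2t3 had 7 against 8 UMIs, in groups of very unequal size.

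Of 12 E protein partners and antagonists 3 were at least 2-fold higher. Hes6 was at 109.7 CPM in positive cells against 32.5 CPM in negative cells, Hes5, a Notch target, at 28.7 against 6.25 CPM, and Id1 at 106 against 40.7 CPM. Myrf was the 1 of 12 oligodendrocyte lineage factors past 2-fold, at 34.0 CPM in positive cells against 69.0 CPM in negative cells. Of 16 other class II bHLH factors, 8 had at least 3 UMIs in both groups together. Of these, 5 were at least 2-fold higher and 0 at least 2-fold lower, beside 7.43% and 12.5% of all genes under the unlike rule for 0 UMIs. A gene with 0 UMIs in the smaller positive group could not count as lower here, so no conclusion is drawn from these counts. Some counts were low, with 4, 6 and 7 UMIs of Neurog1, Neurod6 and Neurod2 in all neural cells of the tumour. Without cluster 12, 4 of 14 proneural targets, 2 of 12 partners and antagonists and 6 of 8 other class II factors were 2-fold higher. In that split, chosen after seeing the data, 0 of 12 lineage factors were 2-fold lower.

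The Olig and E protein genes differed less. Olig1 was at 1446 CPM in Neurod1-positive cells against 1609 CPM in Neurod1-negative cells, Olig2 at 309 against 324 CPM and Tcf3 at 77.0 against 69.0 CPM. Tcf4 was at 624 CPM in positive cells against 483 CPM in negative cells, a ratio of 1.29 (1.24 to 1.35). Tcf12 was at 191 CPM in positive cells against 247 CPM in negative cells, a ratio of 0.771 (0.714 to 0.832). Of the E proteins, Tcf4 was higher and Tcf12 lower.

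**Figure D5:**
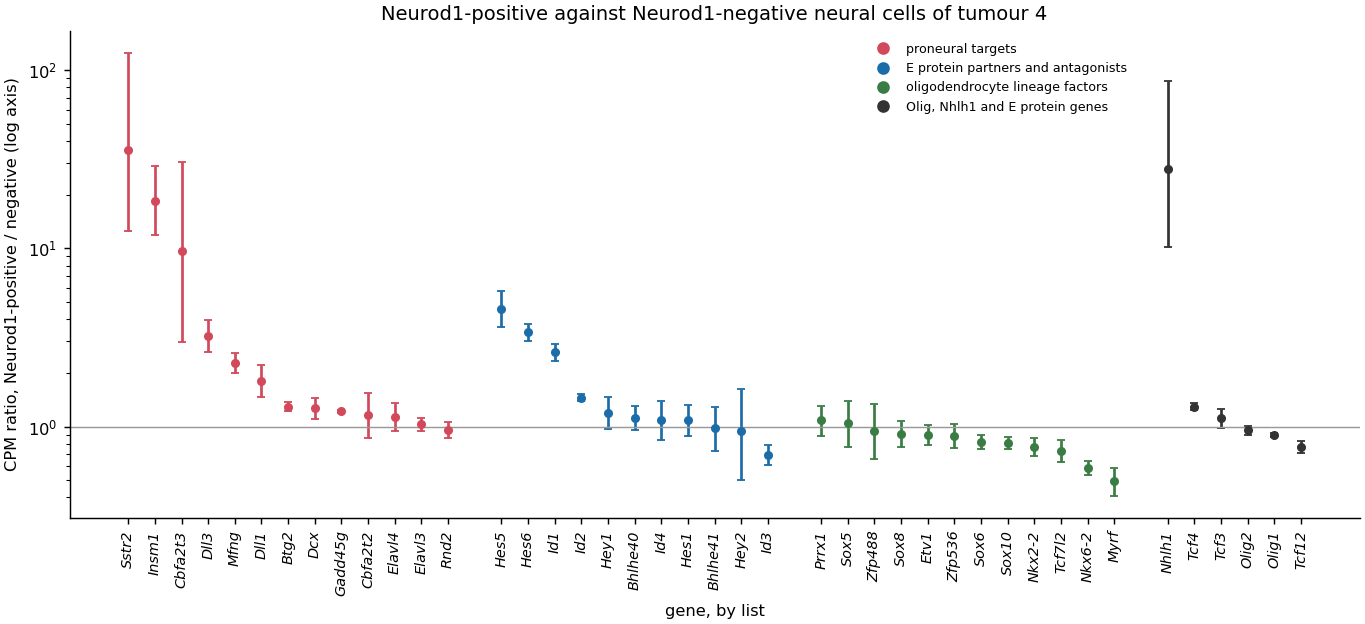
Ratio of CPM in 255 Neurod1-positive over 3622 Neurod1-negative neural cells of tumour 4 (y axis, log scale) for the other factors and the genes of 3 lists with at least 3 UMIs in both groups (x axis), coloured by gene list, with exact 95% counting intervals. Insm1 stands at 18.4, Hes5 at 4.59, Tcf4 at 1.29, Tcf12 at 0.771 and Myrf at 0.493.

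In tumour 2, Neurod1 and Neurog2 were concentrated in a handful of cells. The 53 Neurod1 UMIs came from 8 neural cells, 25 of them from 1 cell, and 7 of the 8 cells lay in cluster 15. The 84 Neurog2 UMIs came from 27 cells, 36 of them from 1 cell. In 4 cells both genes were found, holding 30 of the Neurod1 and 47 of the Neurog2 UMIs. Cluster 15 was at 122.5 CPM of Neurod1 and 113 CPM of Neurog2, its 22 cells had a median of 19160 UMIs, and its G2/M genes summed to 11900 CPM. The Dlx-marked cluster 12 of that tumour had 0 Neurod1 UMIs and 7.65 CPM of Neurog2. In tumour 1, 20 Neurod1 UMIs lay in 16 neural cells, with at most 3 in a cell.

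The E protein genes had different neighbours across clusters. By mean r over the 3 tumours, the closest to Tcf3 were Dctpp1, Bok, Smarcc1, Hnrnpab and Dut, with r from 0.84 to 0.86. Those closest to Tcf4 were Ptprs, Nova2, Celsr2, Lman2l and N4bp2l2, with r from 0.79 to 0.84. Tcf12 was closest to Trib2, Chst11, Trio, Xpr1 and Ptprz1, with r from 0.67 to 0.78. Between E proteins the values were lower and uneven, such as 0.06, 0.86 and 0.26 for Tcf3 and Tcf4 in tumours 1, 2 and 4. Neurod1 passed 10 CPM in 9 neural clusters of tumour 4 and in 1 of tumour 2, and stood at 1.03 CPM or less in those of tumour 1, so no genes are ranked against it over the tumours.

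Lists of genes that act with these factors were read in the same tests. In cycling against non-cycling cells, edgeR called 0 of 11 E protein partners and antagonists, 0 of 4 other class II factors, 0 of 12 oligodendrocyte lineage factors and 0 of 11 proneural targets, against 2.29% of all genes. The median log2 change was 0.631 for the E protein partners and antagonists and -0.321 for the lineage factors, against -0.0152 for all genes. Without tumour 2 these medians were 0.195 and -0.165, and that of the proneural targets was -0.0959, against 0.291 in all 3 tumours. In that fit, where 20.5% of all genes were called, Hes1 rose by 0.88 (adjusted p = 6.0e-07) and Id1 by 0.59 (adjusted p = 0.00012), and Myrf fell by 0.42 (adjusted p = 0.0016), in edgeR. In all 3 tumours, DESeq2 called Hes1 (log2 change 1.16, adjusted p = 0.017) and Nkx6-2 (-0.96, adjusted p = 0.020). Each was the 1 gene called of 12 tested in its list, and the other lists had none. Of all 19879 genes in DESeq2, 311 were called higher and 78 lower. Between neural and immune clusters, the E-box repressors Bhlhe41 (fall of 1.84 ± 0.33, adjusted p = 0.020) and Bhlhe40 (fall of 1.12 ± 0.22, adjusted p = 0.030) were lower in neural cells, 2 of 11 genes tested in edgeR, where 9.9% of all genes were called. Bhlhe41 was at 8.20, 157.5 and 14.8 CPM in neural clusters of tumours 1, 2 and 4, against 32.9, 168.2 and 60.8 CPM in immune clusters. Bhlhe40 was at 43.9, 75.4 and 45.9 CPM, against 68.3, 81.5 and 103.5 CPM. In CPM, the gap was thus small in tumour 2 for these 2 repressors. DESeq2 called both, and edgeR called neither without tumour 1 or without tumour 4. No gene of the 4 lists was called between OPC-high and OPC-low cells or between the top and bottom 25% by myelin share, and 0% of all genes were.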

How the data were processed

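The deposited values used are UMI counts, as whole numbers for every gene and barcode of a tumour, and the authors' normalised tables were not used. The submitters' processing notes name STAR 2.5.1, Cell Ranger 1.3.0 and build mm10, and no source used here gives the rule for calling cells. The libraries held 47120617, 15231673 and 53551127 UMIs. Barcodes under 500 genes or above 20% mitochondrial UMIs were left out. Each tumour was clustered alone in scanpy 1.11.5 (2000 variable genes, 30 components, 15 neighbours, Leiden resolution 1), without the 8 factors. Clusters at 1000 CPM or more of endothelial and mural genes were set aside as vascular or mixed, those at 2000 CPM or more of leukocyte genes were called immune, and the rest neural, limits set after marker levels had been seen. Scrublet called 0, 7 and 0 doublets and was taken not to have worked, so no cell was left out as a doublet.

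Cell states were called in cells thinned at random to 2000 UMIs. Counts were summed per tumour and state, with at least 20 cells in each, and tested in edgeR 4.0.16 (quasi-likelihood, TMM, filterByExpr, tumour as a block, Benjamini-Hochberg over all genes tested, threshold 0.05), with DESeq2 1.42.0 as an alternative. Both states of a pair come from the same library, so they are paired by construction. The cycle limit of 5 UMIs is loose, since the lists have a base level in all cells, so limits of 10 and 4 were added after seeing the data. The myelin limits of 20 and 4 UMIs left enough cells in tumour 4 alone, so the listed alternative, the top and bottom 25% of non-cycling cells, is given. Tests were checked on simulated data. The factors and lists were chosen with earlier results of these data known. All 8 factors are named. For a factor at 10 CPM or more in at least 5 clusters, the 5 genes with the highest mean r are named, among genes at 20 CPM or more in a cluster of each tumour, except for Neurod1, which reached 10 CPM in 1 cluster outside tumour 4 and was left out after its values were seen. Of each list up to 4 called genes with the smallest adjusted p are named.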

Additional observations from a re-analysis of the deposited data

How the results depend on the processing

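Counts of genes called are given over all genes tested, and the cause of each change was not tested. Of the values of single factors under alternative settings, 298 kept their direction and side of the threshold, 13 newly passed the threshold and 26 changed sign, none of these 26 called in either fit. No factor was called in the fits that these settings are compared with. No value could therefore lose a call, and the 298 were called in neither fit. Without thinning, cycling cells gave 0.2527 for Olig2 and -0.0284 for Tcf12 (log2), against -0.1592 and 0.0356 with it. Tumour 1 had 3 non-cycling cells without thinning and did not enter that fit, so its set of tumours differs too. Tumours 2 and 4 had 44 and 98 non-cycling cells in it. In G2/M against S phase, Neurod1 was at -0.0224 with the doubled limit, and Tcf3 at 0.0021 with no replicate block and -0.0774 to 0.0701 when 1 tumour was left out. In the myelin comparison Olig1 was at -0.124 with fixed limits and up to 4 cycle UMIs, Olig2 at 0.0166 with the top and bottom 25% and up to 4 cycle UMIs, and Tcf12 at 0.051 with no replicate block. Leaving out 1 tumour gave Olig1 -0.0373 to 0.4475, Olig2 -0.2517 to 0.2329 and Tcf12 -0.2413 to 0.277 there. In OPC-high cells Tcf12 was at -0.0386 with at most 10% mitochondrial UMIs, Tcf3 and Tcf12 at -0.0422 and -0.0231 with no filter and -0.0397 and -0.0034 with the top and bottom 25%, and at -0.0807 to 0.1338 and -0.0427 to 0.1075 when 1 tumour was left out. In neuronal-high cells the top and bottom 25% gave Tcf3 -0.0462 and Tcf4 -0.0698, and with up to 4 cycle UMIs Tcf3 -0.0499, Tcf4 -0.0175 and Tcf12 -0.0172. For cycling cells the 301 calls became 529 with no filter on low counts, and leaving out 1 tumour gave 142 to 2788, the first without tumour 4 and the last without tumour 2. For G2/M against S phase the 259 calls became 136 with DESeq2, 568 with 10 or more cycle UMIs (the doubled limit), 702 with no filter and 859 without thinning, and leaving out 1 tumour gave 86 to 1324, the first without tumour 1 and the last without tumour 2. For OPC-high cells 0 became 11 with DESeq2, 83 with no filter, 2 with the top and bottom 25% and 0 to 6 when 1 tumour was left out, the last without tumour 2. For the top and bottom 25% by myelin 0 became 88 with DESeq2, 255 with no filter, 916 with fixed limits and up to 4 cycle UMIs, and 0 to 451 when 1 tumour was left out, again without tumour 2. For neuronal-high cells 110 became 0 with DESeq2, 67 with no filter, 1 with the top and bottom 25%, and 0 with these and up to 4 cycle UMIs. For neural against immune cells 1332 became 2143 with DESeq2 and 856 to 2438 when 1 tumour was left out (856 without tumour 1, 2438 without tumour 2). With no replicate block, the pairing by tumour dropped, calls were 12 for cycling cells, 0 for G2/M, OPC, myelin and neuronal states and 619 for immune cells. Pairs of factors found together more often than expected in all tumours numbered 10, and 5 with cells thinned to 8000 UMIs. Depth limits the rare factors: Nhlh1 had 0 UMIs in tumour 1, where 3 counts allow 0.0679 CPM. Fixed myelin limits (other filters, no thinning, doubled limit), OPC and neuronal states without thinning or with doubled limits, neuronal states with at most 10% mitochondrial UMIs or 1 tumour left out, and Neurod1-positive cells each left fewer than 2 tumours with 20 cells in both states, so these tests were not run; the top and bottom 25% were not rerun with the other cell filters.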
